A study of Mus musculus with 10 samples.

Results

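Genes that mark 2 rare, non-neuronal cell types of the nasal epithelium were followed through RNA-seq of the main olfactory epithelium (MOE): 7 genes of tuft-like microvillous cells (Trpm5, Pou2f3, Avil, Chat, Il25, Ltc4s and Gnat3) and 3 genes of ionocytes (Ascl3, Foxi1 and Cftr). The 10 genes were taken by name from the 24421 rows of the count table, by the cell type they mark and with no threshold on a value. The tissue was the whole MOE of mice at postnatal day 14, labelled as strain C57BL/6 (the study's methods name C57BL/6J zygotes and, for its lines as a whole, a mixed background of C57BL/6J and 129), and the 10 libraries came from wild-type mice (WT, n = 3), from mice heterozygous (het, n = 3) and from mice homozygous (homo, n = 4) for a deletion of both TAAR enhancer 1 and TAAR enhancer 2, the elements that drive the trace amine-associated receptor (Taar) genes of olfactory sensory neurons (OSNs). The deletion was made with CRISPR-Cas9 and is present in every cell of the animal, and no library came from sorted cells, so that each value is an average over all cells of the dissected tissue. In such bulk samples fewer cells of a type and less RNA per cell cannot be told apart.

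Tuft-like microvillous cells of the MOE are chemosensory epithelial cells that carry microvilli in place of cilia and use the signalling cascade of taste cells. They need the POU-domain factor Pou2f3, release acetylcholine, and, like tuft cells of the gut and airway, are a source of the cytokine interleukin 25 and of cysteinyl leukotrienes, which alert type 2 immunity. Ionocytes are cells rich in channels and proton pumps. They need the forkhead factor Foxi1, express the basic helix-loop-helix factor Ascl3, and in airway epithelium hold much of the Cftr, the chloride channel that is mutated in cystic fibrosis. The comparison between genotypes asks whether these bystander cells of the epithelium differed when the Taar enhancers were deleted.

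The libraries held 21423861 to 27712948 counts each, and 19078 to 19477 genes had a count. As a check of the labels, the 14 Taar genes of the cluster were summed, which gave 850 to 915 counts in WT, 738 to 862 in het and 2 to 5 in homo libraries. Markers of mature OSNs, sustentacular cells, basal cells and ciliated cells were present in all libraries. Among marker lists of other cell types, the sum of 6 neutrophil and marrow genes was 347 to 416 CPM (counts scaled to a library total of 1000000) in WT, 248 to 745 CPM in het and 523 to 969 CPM in homo libraries. Nearly all of this sum was Ltf, lactoferrin, at means of 366, 401.5 and 676 CPM, while 4 of the 6 genes were lower in homo than in WT (median log2 fold change of the list -0.62) and 0 were called. In the edgeR test of homo against WT, 2 of the 6 had an unadjusted p under 0.05, against 2.41% of all genes. They were S100a8 (log2 fold change -0.99, unadjusted p = 0.000361, edgeR adjusted p = 0.414) and S100a9 (-0.61, unadjusted p = 0.0126). S100a8 was 5.98 to 8.48 CPM in WT and 3.22 to 4.84 CPM in homo libraries. The sum of 3 gland genes was 449 to 625 CPM in 9 libraries and 1854 CPM in WT-1, where Bpifa2 alone had 1302 CPM against 1.06 to 2.54 CPM elsewhere, with Aqp5 and Muc5b inside the range of the other libraries. Their part in the values of the tuft and ionocyte genes was not tested.

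All 10 genes had at least 1 count in every library, but at very different depth. Ascl3, Foxi1 and Cftr had mean counts of 539, 562 and 437.3 per library, Pou2f3, Trpm5 and Avil had 221, 146 and 139, Ltc4s had 34.9, and Gnat3, Chat and Il25 had 9.6, 7.4 and 5.9. The 3 ionocyte genes and the tuft genes Pou2f3, Trpm5 and Avil can therefore be read per library, whereas the low counts of Gnat3, Chat and Il25 leave wide errors. The genes lie apart on 7 chromosomes (mm10, GENCODE release 21): Trpm5 (chr7:143069153-143094642) and Ascl3 (chr7:109727465-109731726) share chromosome 7, Chat (chr14:32408203-32465989) and Il25 (chr14:54932695-54935837) share chromosome 14, and Ltc4s (chr11:50236461-50238616) and Foxi1 (chr11:34204338-34208089) share chromosome 11. Pou2f3 (chr9:43123939-43210369), Gnat3 (chr5:17962549-18019834) and Cftr (chr6:18170687-18322768) are alone on theirs. Avil (chr10:127000709-127020994) is on the chromosome of the Taar cluster but 102.9 Mb beyond its end. Trpm5, Avil, Chat, Ltc4s and Cftr each overlap another annotated gene, and the strand setting of the counting is not given in the sources used here, so that reads of the overlapping partner could be included in their counts.

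Promoter sequences, 250 bases before to 50 bases after the gene start, were found for 8 of the 10 genes in RefSeq (GRCm38.p6), and not for Pou2f3 and Il25. Those of the 3 ionocyte genes are shown because the levels of these genes varied together or in opposition between libraries, and that of Avil because it held most matches to the letters that POU factors such as Pou2f3 bind. Each runs 5′ to 3′ on the strand of the gene. Capitals mark matches, on either strand, to ATGCAAA, the core of the octamer, and to TGTTTNC, a loose forkhead motif.
Ascl3, chr7:109731683-109731982, minus strand: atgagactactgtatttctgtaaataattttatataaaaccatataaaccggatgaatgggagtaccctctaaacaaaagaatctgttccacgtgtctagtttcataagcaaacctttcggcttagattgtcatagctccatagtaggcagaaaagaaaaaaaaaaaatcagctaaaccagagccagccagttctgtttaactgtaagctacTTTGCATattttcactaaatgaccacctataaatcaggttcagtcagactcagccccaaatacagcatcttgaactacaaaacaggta
Foxi1, chr11:34208040-34208339, minus strand: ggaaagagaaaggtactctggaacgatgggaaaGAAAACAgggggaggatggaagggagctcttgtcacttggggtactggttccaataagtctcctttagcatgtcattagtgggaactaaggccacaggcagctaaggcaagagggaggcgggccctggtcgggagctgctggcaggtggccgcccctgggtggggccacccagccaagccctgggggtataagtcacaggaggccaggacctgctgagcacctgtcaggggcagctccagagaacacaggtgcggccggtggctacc
Cftr, chr6:18170437-18170736, plus strand: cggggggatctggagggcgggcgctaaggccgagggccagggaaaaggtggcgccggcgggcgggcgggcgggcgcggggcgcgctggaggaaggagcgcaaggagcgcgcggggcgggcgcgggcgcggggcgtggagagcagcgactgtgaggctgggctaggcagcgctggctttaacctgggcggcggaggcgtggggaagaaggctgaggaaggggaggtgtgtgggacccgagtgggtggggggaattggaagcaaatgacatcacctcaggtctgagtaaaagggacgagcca
Avil, chr10:127000459-127000758, plus strand: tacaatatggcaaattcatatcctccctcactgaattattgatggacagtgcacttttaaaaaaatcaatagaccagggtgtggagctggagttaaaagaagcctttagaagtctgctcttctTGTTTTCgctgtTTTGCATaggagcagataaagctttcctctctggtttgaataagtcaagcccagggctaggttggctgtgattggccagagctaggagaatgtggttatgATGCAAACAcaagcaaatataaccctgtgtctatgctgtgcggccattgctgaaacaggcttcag

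The octamer core ATGCAAA was found at 2 places in the Avil promoter, beginning 115 and 15 bases before the start, and in that of Ascl3, 38 bases before it, and in 4.63% of all 32851 promoters of this length. The full octamer ATGCAAAT, which 1.74% of promoters hold, was in none of the 8. The loose forkhead motif TGTTTNC was in the promoters of Avil, with a pair of matches, Ltc4s and Foxi1, against 20.5% of all promoters, and its strict form TGTTTAC, in 3.65% of all promoters, was in none of the 8. The Avil matches beginning 15 and 13 bases before the start overlap. The E-box CANNTG, the motif of basic helix-loop-helix factors, had 6 matches in the promoter of Gnat3, 4 in that of Foxi1, 2 in that of Chat and 1 each in those of Ltc4s, Ascl3 and Cftr, and 72.3% of all promoters hold it. The Cftr promoter was 71.3% GC and that of Ascl3 36.0%, at either side of the 39.7% to 69.7% that span the middle of all promoters from the 10th to the 90th percentile. A match describes these letters only and says nothing of binding in this tissue.

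Per kilobase of exon the order of the levels was led by the ionocyte genes. Mean RPKM (CPM per kilobase of exon, with the SD over 10 libraries) were 31.7 ± 4.09 for Ascl3 and 9.83 ± 1.27 for Foxi1, and each was above the gene next in order in 10 of 10 libraries. Pou2f3 at 2.95 ± 0.204 RPKM and Cftr at 2.33 ± 0.392 RPKM were neighbours whose order held in 8 of 10 libraries. Pou2f3 was thus the highest of the tuft genes, and per kilobase Cftr stood well below Ascl3 and Foxi1. In CPM, with no division by length, Cftr at 18.1 was closer to Ascl3 at 22.2 and Foxi1 at 23.2. Whole tissue does not show which cells the Cftr reads came from. Avil (1.69 ± 0.135 RPKM) was above Ltc4s (1.41 ± 0.453 RPKM) in 7 of 10 libraries, and Ltc4s above Trpm5 (0.946 ± 0.119 RPKM) in 8 of 10. The order of such neighbours depends on the length used. All annotated exons together span 1014 bases in Ltc4s and 3398 in Avil, and the longest transcripts 716 and 3033 bases. Trpm5 was above Gnat3 in every library. Gnat3 (0.287 ± 0.147 RPKM), Il25 (0.228 ± 0.144 RPKM) and Chat (0.0655 ± 0.0352 RPKM) ended the order, each above the next in 8 of 10 libraries.

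**Figure D1:**
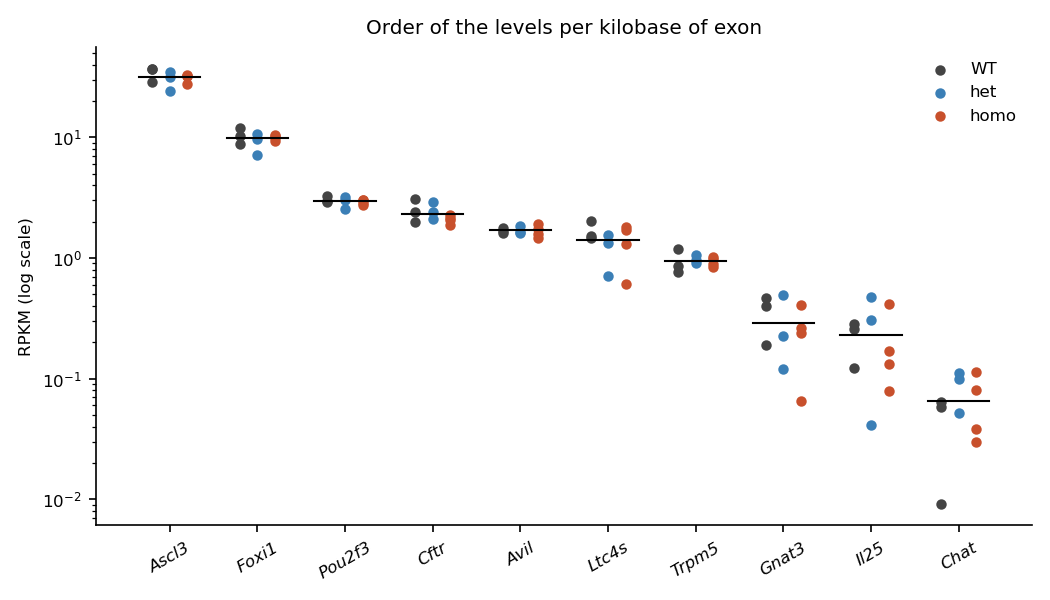
Levels of the 10 genes in RPKM (CPM per kilobase of exon, log axis), 1 point per library coloured by genotype, with the mean of the 10 libraries as a line. Ascl3 (31.7 RPKM) and Foxi1 (9.83 RPKM) stand above the other genes in every library, and Chat (0.0655 RPKM) is the lowest.

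Genotype did not move any of these genes past the test. Of the 10 genes 9 passed the filter on low counts, Il25 being the exception. In the edgeR quasi-likelihood test with Benjamini-Hochberg adjustment over all 17197 genes tested, 0 of the 9 were called at an adjusted p under 0.05 in homo against WT (0.0698% of all genes were called). The same count was 0 of 9 where het was set against WT (0% of all genes), and 0 of 9 where homo was set against het (0.0756%). At an unadjusted p under 0.05 the count was still 0 of 9 in each comparison, against 2.41%, 1.92% and 2.48% of all genes. DESeq2 and limma-voom called 0 as well. For none of the 9 did the ranges of CPM in homo and WT libraries lie apart, against 3.55% of all genes. With 9 genes, shares of this size would give 0 or close to it, so that these counts say little about the genes as a group. In het against WT the whole table gave 0 calls without and 3 with a block for the replicate number in WT and het alone. The sample titles give these numbers but state no pairing. Of the 9 genes 0 were among the 3. The median log2 fold change of the 9 genes was -0.06 for homo and -0.06 for het relative to WT, and -0.02 for homo relative to het, beside medians over all genes of 0.00012, -0.00088 and -0.00097.

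**Figure D2:**
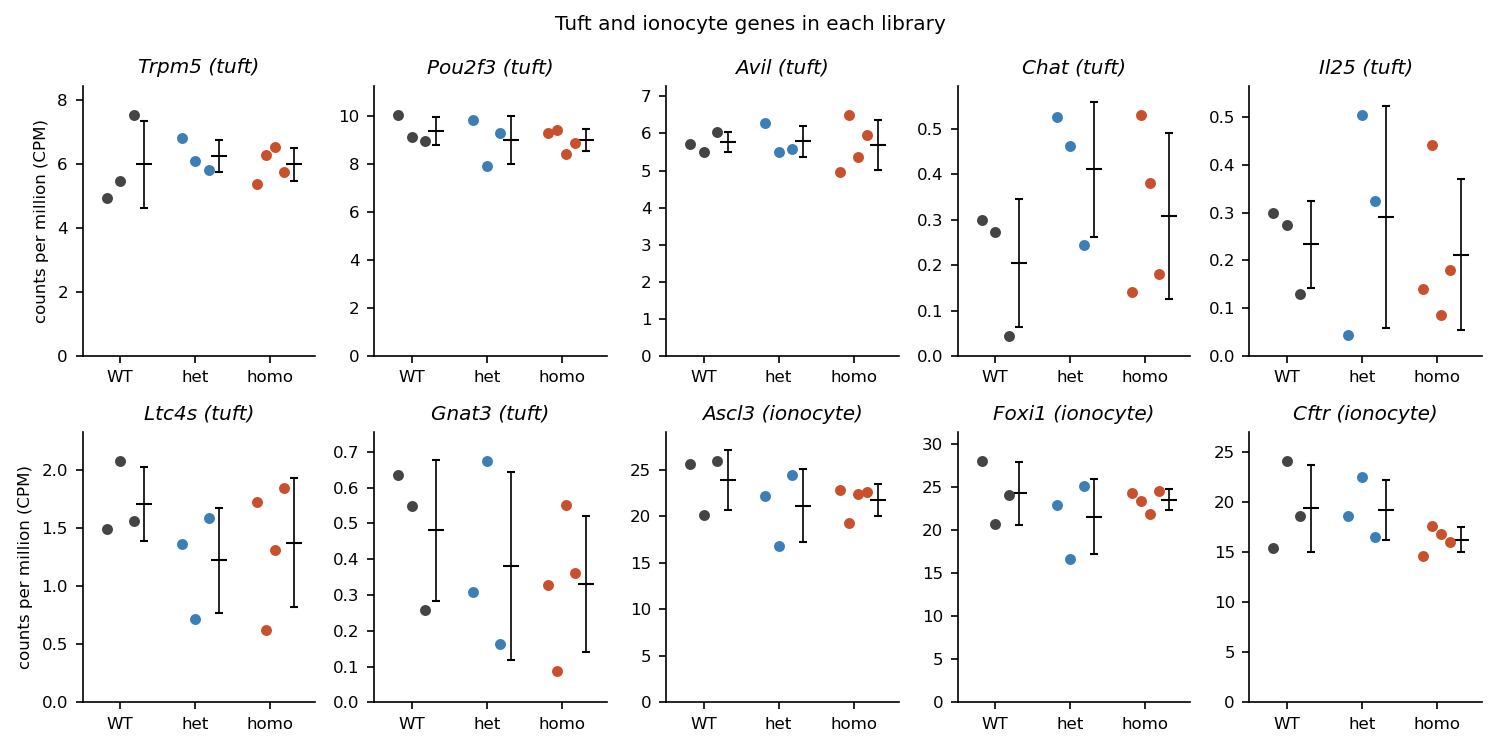
CPM of the 10 genes in each library, by genotype, with the mean and SD of each genotype beside the points. The vertical axis starts at 0 in every panel. The ranges of the genotypes overlap in all 10 panels, for example 4.93 to 7.52 CPM in WT and 5.37 to 6.52 CPM in homo libraries for Trpm5.

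Pou2f3, the factor that tuft cells depend on, was the steadiest of the 10. It measured 10.1, 9.15 and 8.95 CPM in WT, 9.83, 7.91 and 9.31 CPM in het and 9.29, 9.42, 8.43 and 8.88 CPM in homo libraries. The 3 groups overlapped throughout, with means of 9.38 ± 0.587 (SD, n = 3), 9.01 ± 0.994 (n = 3) and 9.003 ± 0.449 CPM (n = 4). The log2 fold change in homo against WT was -0.06 (SE 0.13, edgeR adjusted p = 1), and its 95% interval spans 0.792-fold to 1.17-fold. Over the 10 libraries its coefficient of variation was 6.90%, about the 6.73% that counting error alone gives at this depth.

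Trpm5, the cation channel at the end of the taste cascade, measured 4.93, 5.47 and 7.52 CPM in WT, 6.80, 6.10 and 5.81 CPM in het and 5.37, 6.28, 6.52 and 5.74 CPM in homo libraries. The highest and the lowest of all 10 values were both WT libraries, so that the spread within WT was larger than any difference between genotypes. In homo against WT the log2 fold change was 0.01 (SE 0.17, edgeR adjusted p = 1), with a 95% interval from 0.784-fold to 1.29-fold.

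Avil encodes advillin, an actin-binding protein of microvilli. It measured 5.72, 5.51 and 6.05 CPM in WT, 6.27, 5.51 and 5.57 CPM in het and 4.95, 6.50, 5.38 and 5.95 CPM in homo libraries. Homo libraries held both the lowest and the highest value, and the other groups lay between them. Homo against WT gave a log2 fold change of -0.01 (SE 0.15, edgeR adjusted p = 1; 0.792-fold to 1.25-fold). Its coefficient of variation over the libraries, 8.003%, was not above the 8.48% of counting error.

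Ltc4s, the synthase of leukotriene C4, measured 1.49, 2.07 and 1.56 CPM in WT, 1.36, 0.715 and 1.59 CPM in het and 1.73, 0.619, 1.31 and 1.84 CPM in homo libraries. Low values occurred in 1 het and 1 homo library, het-2 and homo-2, and the remaining homo libraries were within or near the WT range. Relative to WT the log2 fold change was -0.31 in homo (SE 0.35, edgeR adjusted p = 1) and -0.48 in het against WT (SE 0.38, edgeR adjusted p = 1.0), and the first has an interval from 0.482-fold to 1.36-fold.

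The other tuft genes were too shallow for more than wide limits. Gnat3, the G protein alpha subunit gustducin, had 17, 14 and 6 counts in WT, 7, 16 and 4 in het and 7, 2, 13 and 10 in homo libraries. Chat, which makes acetylcholine, had 8, 7 and 1 counts in WT, 12, 11 and 6 in het and 3, 12, 9 and 5 in homo libraries. In both genes counts of 7 or less and of 12 or more occurred in more than 1 genotype. The 95% interval in homo against WT ran from 0.294-fold to 1.61-fold for Gnat3 (log2 fold change -0.53, SE 0.58, edgeR adjusted p = 1) and from 0.553-fold to 3.87-fold for Chat (0.54, SE 0.66, edgeR adjusted p = 1). Il25, the cytokine of tuft cells, had 8, 7 and 3 counts in WT, 1, 12 and 8 in het and 3, 10, 2 and 5 in homo libraries. Tested without the filter, its log2 fold change in homo against WT was -0.16 (SE 0.77, edgeR adjusted p = 1). Fold changes anywhere inside these intervals are compatible with the counts of Gnat3 and Chat, and no interval is given for Il25.

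The ionocyte genes were deep enough for tighter limits. Ascl3 measured 25.6, 20.1 and 25.9 CPM in WT, 22.2, 16.8 and 24.5 CPM in het and 22.8, 19.2, 22.4 and 22.7 CPM in homo libraries. Its lowest value was het-2, and in homo libraries homo-2 stood below the other 3, all groups overlapping. Its log2 fold change was -0.13 in homo (SE 0.13, edgeR adjusted p = 1; 0.753-fold to 1.11-fold) and -0.18 in het against WT (SE 0.14, edgeR adjusted p = 1.0). Without het-2 the latter was -0.040.

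Foxi1 measured 28.0, 20.7 and 24.1 CPM in WT, 22.9, 16.7 and 25.1 CPM in het and 24.3, 23.3, 21.8 and 24.5 CPM in homo libraries. The highest value was WT-1 and the lowest het-2, and the 4 homo libraries lay inside the WT range. The log2 fold change in homo against WT was -0.04 (SE 0.14, edgeR adjusted p = 1), with a 95% interval from 0.796-fold to 1.19-fold, and it was -0.17 in het against WT (SE 0.15, edgeR adjusted p = 1.0), where leaving out het-2 gave -0.020.

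Cftr had the lowest unadjusted p of the 9 genes in homo against WT, and it too failed the test. It measured 15.4, 24.04 and 18.6 CPM in WT, 18.6, 22.5 and 16.5 CPM in het and 14.6, 17.6, 16.8 and 15.99 CPM in homo libraries. The homo libraries lay close together, from just below the WT range to its lower part, and WT-2 and het-2, the libraries with the lowest Foxi1, were the highest. The log2 fold change was -0.25 in homo against WT (SE 0.15, edgeR adjusted p = 1), with a 95% interval from 0.677-fold to 1.05-fold, and -0.01 in het against WT (SE 0.16, edgeR adjusted p = 1.0). The former was -0.064 without WT-2 and -0.39 without WT-1. In homo against het it was -0.23 (SE 0.15, edgeR adjusted p = 1.0).

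**Figure D3:**
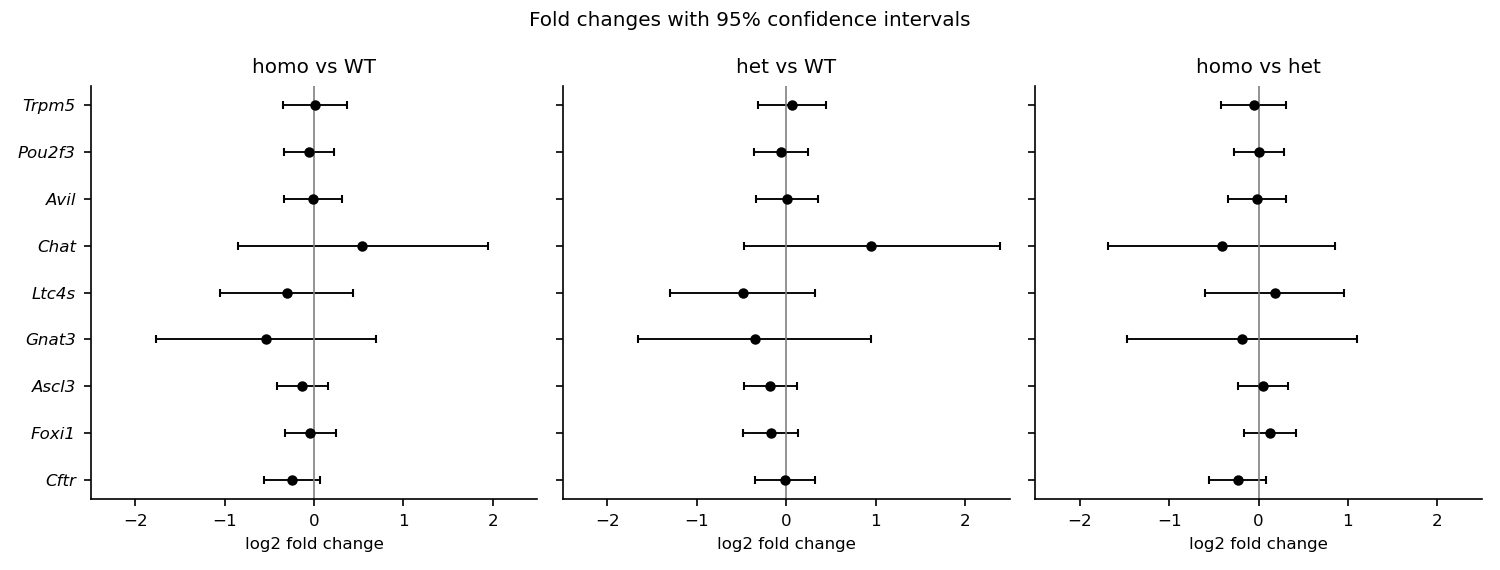
Log2 fold changes of the 9 genes tested, with 95% confidence intervals, for the 3 pairs of genotypes. Every interval includes 0. In homo against WT the interval is -0.34 to 0.23 for Pou2f3 and -0.86 to 1.95 for Chat.

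The levels were also summed over each cell type. The 7 tuft genes summed to 23.7 ± 0.665 CPM in WT, 23.3 ± 1.66 in het and 22.9 ± 0.817 in homo libraries (SD), with overlapping ranges. The 3 ionocyte genes summed to 69.0, 64.9 and 68.6 CPM in WT, 63.7, 55.9 and 66.1 CPM in het and 61.7, 60.2, 61.0 and 63.2 CPM in homo libraries. All homo sums were below all WT sums, although no gene of the 3 showed this by itself. Cftr varied against Ascl3 and Foxi1 between libraries (r of -0.63 and -0.77), so that their deviations partly offset each other in the sum. How often sums of other genes lie apart was not computed. This sum is a description without a test, and nothing is read from it. The 5 proton pump subunits, which ionocytes share with other cells, summed to 281 to 287 CPM in homo and 255 to 268 CPM in WT libraries. This too is a description without a test. For 0 of the 5 did homo and WT ranges lie apart by themselves, and Atp6v1g3 was lower in homo (log2 fold change -0.31).

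Genes that act with the 10 were looked up in 7 lists of 60 genes, of which 48 were tested. In each of the 3 comparisons 0 of 48 were called in the edgeR test, and 2 of 48 had an unadjusted p under 0.05, against the background shares given above. The log2 fold changes in homo against WT were evenly split, 24 above and 24 below 0, with a median of 0.01. DESeq2 and limma-voom called 0 of them as well.

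Of the taste cascade, 7 of 10 genes were tested and 0 called. It includes Plcb2, the phospholipase that taste receptors act on, at 2.28 ± 0.533 CPM (SD over 10 libraries), Itpr3, its calcium-release channel, at 26.8 ± 3.48 CPM, and Gng13, a G protein gamma subunit that OSNs also express, at 225 ± 61.9 CPM. The bitter receptor gene Tas2r131 had 0 counts in all 10 libraries. Each library taken alone allows up to 3 counts, and the 10 together allow a smaller mean. Among 14 further tuft genes, 13 were tested and 0 called. Of the 4 eicosanoid genes tested, Alox5, Alox5ap, Ptgs1 and Hpgds, which feed leukotriene and prostaglandin synthesis, 0 were called, with log2 fold changes from -0.30 to 0.08 in homo against WT. The vesicular acetylcholine transporter gene Slc18a3, which lies within Chat, had 0 counts throughout. Of 11 genes of type 2 immunity that respond to or act beside Il25, 5 were tested and 0 called, among them Il33 at 172 ± 15.03 CPM.

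Of the ionocyte lists, all 5 proton pump subunits and all 14 further genes were tested and 0 called. The pump subunits Atp6v1b1 and Atp6v0a4 had log2 fold changes of 0.12 (SE 0.081) and 0.15 (SE 0.090) in homo against WT. For 1 of the 48 genes, Slc26a4, which encodes the anion exchanger pendrin, homo and WT ranges lay apart, a share no larger than the 3.55% of all genes, so that nothing is read from it. It measured 2.17, 1.64 and 1.95 CPM in WT, 3.03, 2.52 and 3.98 CPM in het and 2.43, 3.27, 2.62 and 2.598 CPM in homo libraries. Het and homo libraries overlapped each other and lay above the WT libraries. The log2 fold change was 0.51 in homo (SE 0.23, unadjusted p = 0.0417, edgeR adjusted p = 1) and 0.73 in het against WT (SE 0.24, unadjusted p = 0.00886, edgeR adjusted p = 1.0), so that neither passed the adjustment. The other companion genes with an unadjusted p under 0.05, named after their values were seen, were Gfi1b, Spib and Asgr1. Gfi1b, a zinc finger factor of tuft cells, had log2 fold changes of -1.52 in homo against WT (edgeR adjusted p = 1) and -1.74 in homo against het at 1 to 19 counts per library. Spib, an ETS factor, had -0.95 in het against WT, and Asgr1, the asialoglycoprotein receptor, 0.63 in homo against het.

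**Figure D4:**
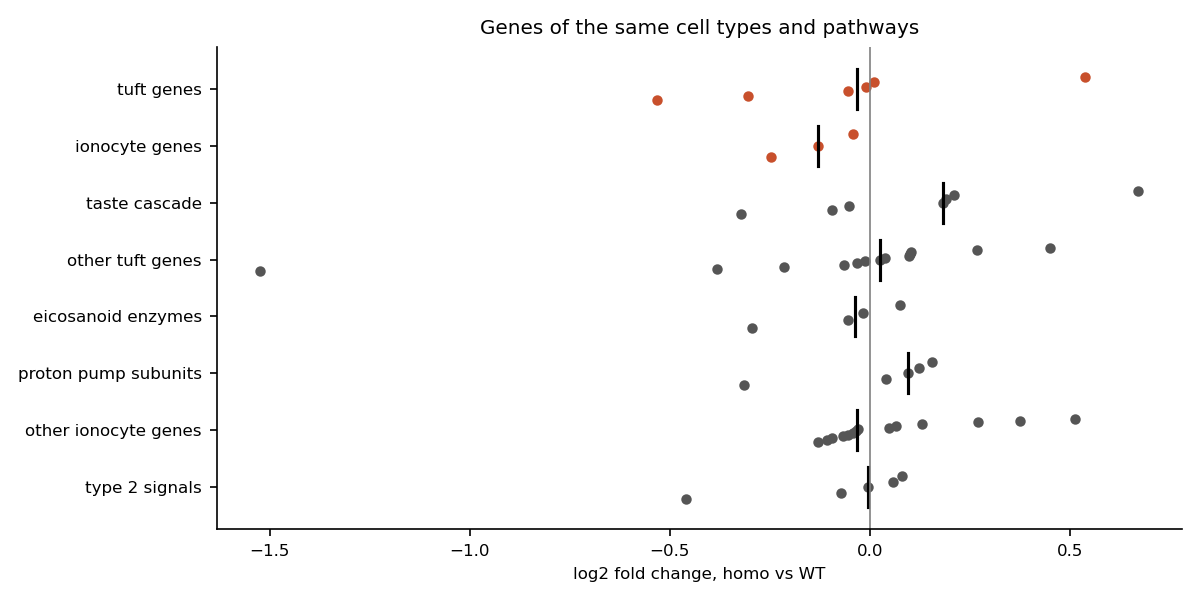
Log2 fold change in homo against WT of each gene tested, for the tuft and ionocyte genes and for lists of genes that act with them, with the median of each list as a bar. Genes scatter on both sides of 0, with medians from -0.13 for the ionocyte genes to 0.18 for the taste cascade, and the point at -1.52 is Gfi1b.

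Between libraries, irrespective of genotype, the ionocyte genes varied by more than counting error. Coefficients of variation over the 10 libraries were 12.9% for Ascl3, 12.9% for Foxi1 and 16.9% for Cftr, where counting error gives 4.31%, 4.22% and 4.78%. Their biological coefficients of variation in the edgeR fit, 13.1%, 13.4% and 14.6%, were near the common 13.9%, with 53.8%, 55.6% and 63.0% of genes lower. The fit draws the value of each gene towards those of other genes, so that lying near the common value is partly built in. Avil, whose spread was not above counting error, still had 13.2%. How the spread of the ionocyte genes compares with that of other genes is therefore not read from these values. Ascl3 and Foxi1 varied together, with Pearson r of log2(CPM + 0.1) of 0.86 (Spearman rho 0.78, n = 10), 0.82 without the pair of libraries farthest from the median 0.69 without het-2 and 0.87 after the genotype means were removed. The ratio of their counts stayed between 0.824 and 1.07. Cftr went against both. Its r was -0.77 with Foxi1 (rho -0.82, and -0.75 without WT-1 and het-2) and -0.63 with Ascl3 (rho -0.60), and -0.89 and -0.87 within genotypes. Cftr had 0.550 counts per Foxi1 count in WT-1 and 1.35 in het-2, a 2.45-fold range, with 1.16 in WT-2 and 0.601 to 0.813 in the remaining 7 libraries. These values are given without p, since the 10 libraries share the tissue, the depth of each library and its base composition.

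The base composition of the libraries moved with these genes, and transcript length with Ascl3. A GC measure was computed for each library as the median log2 deviation of the top quartile of genes by transcript GC content minus that of the bottom quartile, over genes with a mean of at least 1 CPM and without the 10 genes. It was lowest in het-2 (-0.40) and WT-2 (-0.20), and -0.06 to 0.21 in the other 8 libraries. Its r was 0.93 with Foxi1, 0.86 with Ascl3, -0.76 with Cftr and -0.89 with the log2 ratio of Cftr to Foxi1. The longest annotated transcript is 41.2% GC for Cftr, below the 44.1% that bounds the bottom quartile, 55.6% for Ascl3, above the 54.2% that bounds the top quartile, and 52.4% for Foxi1. Without het-2 and WT-2 the r with the GC measure was 0.70 for Foxi1, 0.59 for Ascl3, -0.18 for Cftr and -0.48 for the ratio. With the GC measure taken out of both genes, r was 0.33 between Ascl3 and Foxi1, -0.28 between Foxi1 and Cftr and 0.06 between Ascl3 and Cftr. The total of odorant receptor genes, 3883 to 5454 CPM and highest in het-2, moved with the GC measure as well (r = -0.90, and -0.60 without het-2 and WT-2). Odorant receptor genes were not removed from the GC measure, so that it and the total are not independent. The r of the total was -0.94 with Foxi1, -0.72 with Ascl3, 0.68 with Cftr and 0.85 with the log2 ratio of Cftr to Foxi1. Without het-2 and homo-3 these were -0.77, -0.33, 0.73 and 0.78. A length measure, long minus short transcripts in the same form, moved with Ascl3 too, whose 700-base transcript is shorter than nearly all others, at r = -0.77 (-0.75 without het-3 and homo-2), and less with Foxi1 (-0.42) and Cftr (0.37). Whether base composition or transcript length in the libraries or the makeup of the dissected tissue lies behind these values was not tested.

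**Figure D5:**
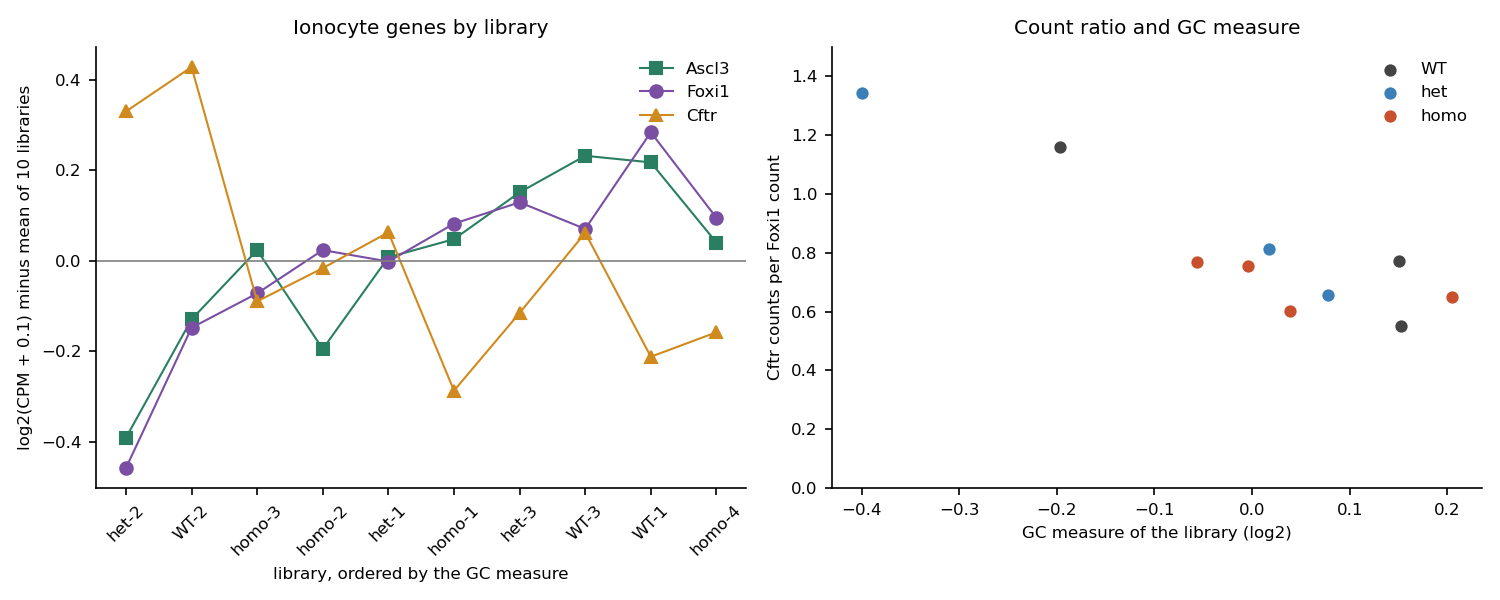
Left, log2(CPM + 0.1) of Ascl3, Foxi1 and Cftr in each library as a deviation from the mean of 10 libraries, with libraries ordered by their GC measure. Right, Cftr counts per Foxi1 count against the GC measure, 1 point per library coloured by genotype. Het-2 and WT-2, at the low end of the GC measure, have the highest Cftr counts per Foxi1 count (1.35 and 1.16), and Ascl3 and Foxi1 follow the measure in the other direction.

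Correlations among the tuft genes were weaker. Pou2f3 and Avil varied no more than counting error or close to it, so that correlations with them have little to measure, and Trpm5 varied by 12.6% where counting error gives 8.28%. The r was 0.48 between Trpm5 and Avil, -0.29 between Trpm5 and Pou2f3 and 0.31 between Pou2f3 and Avil. Pou2f3 had an r of 0.79 with Foxi1 (rho 0.53), which was 0.40 without het-2 and homo-3 and 0.75 with the GC measure taken out of both. Trpm5 and Foxi1 went from -0.25 to -0.66 by that removal. Trpm5 had an r of -0.01 with the GC measure and Pou2f3 0.62, the latter 0.16 without het-2 and WT-2. Among the 15742 genes with a mean of at least 1 CPM, those most like Trpm5 over the 10 libraries were Olfr843 (r = 0.92), Sin3b (0.89), Olfr870 (0.87), Olfr420 (0.86) and Mat1a (0.85), and Avil ranked 959. Those most like Ascl3 were Chtf8 (0.98), Zfand3 (0.98), Ctdnep1 (0.98), Snx17 (0.98) and Map1lc3b (0.98), with mean levels of 63.7 to 237 CPM against 22.2 CPM for Ascl3, and Foxi1 ranked 427. No gene of the 7 companion lists was among these nearest genes. The nearest genes are the top of 15742 correlations over 10 libraries, where selection alone gives high r, so that nothing is read from their names.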

How the data were processed

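Whole MOE of 3 WT, 3 het and 4 homo mice (C57BL/6 in the labels) at P14 was profiled by RNA-seq. Genotypes and replicate numbers came from the sample titles. Nothing in the labels says that same-group libraries came from separate litters or preparation days, so p-values measure the spread between these samples. Libraries were directional after poly(A) bead selection. Per the labels' processing notes, which name Trimmomatic 0.36, HISAT2 2.1.0, featureCounts of Subread 1.6.2 and DESeq2 1.20.0, the authors aligned reads to mm10 and deposited raw counts per gene. The annotation, the strand setting and the handling of multiply aligned reads are not given in the sources used here. A further table that the authors deposited holds normalized signal, the counts over 1 size factor per library (0.879 to 1.18), and it served only as an alternative scale.

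The members and gene lists were chosen with earlier results of these data known. CPM is the count scaled to a library total of 1000000, and RPKM divides CPM by the union of exons in GENCODE release 21. Log2 levels used a pseudocount of 0.1 CPM. Counts were tested with edgeR 4.0.16 in R 4.3.3. Genes passed filterByExpr on genotype (minimum count 10, minimum total 15), TMM scaling was used, and a robust quasi-likelihood model with genotype as its only term was fitted to all 10 libraries. Two-sided F tests were adjusted by Benjamini-Hochberg over 17197 genes, and an adjusted p under 0.05 was a call. The common biological coefficient of variation was 13.9%. Confidence intervals are 95%. Counting error assumes independent reads, and a count of 0 allows up to 3. By rule, the text names the companion genes called or, failing that, those whose homo and WT ranges lay apart, at most 4 a list, which gave Slc26a4, and the 5 genes most like Trpm5 and Ascl3. Other companion and marker genes are named as examples, chosen after their values were seen. The procedure was tested on simulated data. Chi-square statistics of 13.9 to 47.0 for each degree of freedom separated every pair of libraries of 1 genotype, and each library was counted once.

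Deviations of same-numbered WT and het libraries from their group means correlated at 0.32, 0.27 and 0.22. All were over 0.1, and these numbers were treated as pairs for a block. Numbers of homo with WT (-0.11, -0.02, -0.07) and with het (-0.16, 0.14, 0.06) were not. Correlations between libraries of different numbers were not computed, and the sample titles state no pairing, so these values cannot show that the numbers pair. Alternatives were DESeq2 1.42.0, limma-voom (limma 3.58.1), other scalings, filters and covariates, and leaving out each library. A block for WT and het alone, a term for the GC measure and the removal of that measure from correlations were added after the data were seen.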

Additional observations from a re-analysis of the deposited data

Results flagged for a closer look

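Among the 4 homo libraries, 1 value of the 12 examined (10 genes and 2 sums) stood apart from the rest by Dixon's criterion. Ascl3 measured 19.2 CPM in homo-2 and 22.4 to 22.8 CPM in the other 3. Chance flags about 1 in 20 groups examined. Without homo-2 the log2 fold change of Ascl3 in homo against WT was -0.09, and the gene was not called.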

How the results depend on the processing

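In all 3 comparisons, 0 of the tuft and ionocyte genes and 0 of the companion genes that an alternative tested were called, including the fits without each library. Chat and Gnat3 failed the filter in some of them. The lowest adjusted p of a member under any of them was 0.743 (Ascl3, het against WT, WT and het alone with the replicate block). Unadjusted, Cftr reached 0.0219 without WT-1 in homo against WT (log2 fold change -0.39, against -0.064 without WT-2) and 0.0490 without het-3 in homo against het. Over the whole table, the fit with the replicate block, which also left out homo-4, gave 19 calls in homo against WT where the main fit gave 12. In homo against het it gave 22 where the main fit gave 13. Leaving out homo-4 without a block gave 12 in homo against WT. A replicate block in WT and het alone moved the calls from 0 to 3 in het against WT. The homo numbers were not taken as pairs with the others, so the counts with homo rest on a shared number only, and the cause was not tested. Other settings gave 10 to 14, 0, and 10 to 16.

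Signs of uncalled fold changes near 0 turned. In homo against WT, leaving out libraries gave -0.12 to 0.20 for Trpm5, -0.093 to 0.041 for Avil and -0.15 to 0.071 for Foxi1, and a term for Y-linked counts gave -0.0027 for Trpm5. In het against WT the ranges were -0.055 to 0.25 for Trpm5, -0.13 to 0.022 for Pou2f3, -0.058 to 0.042 for Avil, -1.05 to 0.026 for Gnat3 and -0.15 to 0.18 for Cftr. In homo against het they were -0.11 to 0.0079 for Trpm5, -0.076 to 0.067 for Pou2f3, -0.099 to 0.043 for Avil, -0.085 to 0.41 for Ltc4s, -0.56 to 0.52 for Gnat3, -0.087 to 0.16 for Ascl3 and -0.020 to 0.24 for Foxi1. There Pou2f3 was -0.0021 with library totals only, -0.00065 with a mean of at least 1 CPM, -0.011 with the Y-linked term and -0.041 with a term for the GC measure, which also gave 0.26 for Gnat3 and -0.068 for Ascl3. In het against WT, Ascl3 and Foxi1 were -0.040 and -0.020 without het-2, and -0.061 and -0.050 with the term for the GC measure. The r of Ascl3 with Cftr turned from -0.63 to 0.060 with the GC measure taken out. The levels kept their ratios between genotypes on the authors' normalized scale to within the spread of the replicates. Depth limits Gnat3, Chat and Il25, at means of 5.9 to 9.6 counts.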
